A study of Mus musculus with 8 samples.

Results

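The glycolysis and hypoxia response genes are 36 genes chosen by name, of 22053 rows in a table of protein-coding genes measured by bulk RNA sequencing. They comprise 2 glucose transporters, 15 glycolytic enzymes and 4 genes that make, use or carry lactate. A further 3 are kinases that control glycolysis or the use of its pyruvate. The others are 4 genes of the oxygen sensor and 8 hypoxia targets with no glycolytic role. All 36 had a row, and all 36 passed the filter on low values, as did 10729 rows in all. The study compared candidate vertebral skeletal stem cells (vSSC), sorted from the spine, with long bone skeletal stem cells (lbSSC), sorted from femur and tibia. Every library came from wild-type mice at postnatal day 10, with no treatment named in the labels. Each group had 4 libraries, of which replicates 1 and 2 were male and replicates 3 and 4 female. The same surface gate served for both sites: CD31-, TER119-, CD45-, Thy-, 6C3-, CD200+ and CD105-. The labels call the libraries biological replicates without the number of mice behind each, and the p-values therefore describe only how these libraries vary, which may in part be technical.

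Glycolysis turns glucose into pyruvate in the cytosol and yields ATP without oxygen. Lactate dehydrogenase then converts pyruvate to lactate, which regenerates the NAD+ that the pathway needs, and monocarboxylate transporters carry the lactate out of the cell. The hypoxia-inducible factors (HIF) are heterodimers whose alpha subunit is hydroxylated by the Egln enzymes when oxygen is present and is then degraded, so their activity is set largely at the protein level. They bind a short core sequence near many genes of glycolysis and of the response to low oxygen. Cartilage has no vessels of its own, and growth plate chondrocytes are known to rely on glycolysis and on Hif1a for survival.

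The levels are FPKM, fragments scaled by transcript length and by library total, as the authors deposited them. The FPKM of all rows summed to 517314 to 571869 in the vSSC libraries and 460302 to 521489 in the lbSSC libraries. How many fragments lay behind them is unknown. Ribosomal protein genes took 18.0% to 21.1% of the summed FPKM in vSSC and 15.4% to 18.1% in lbSSC. The gate was visible in the RNA: Cd200 stood at 84.2 to 143 FPKM in every library, while Ptprc (CD45), Pecam1 (CD31) and Thy1 stayed below 1 FPKM. Eng (CD105) reached at most 1.17 FPKM and Enpep (6C3) at most 1.76. Both groups carried abundant cartilage transcripts, with Col2a1, the main collagen of cartilage, at 10866 ± 3960 FPKM (SD, n = 4) in vSSC and 14146 ± 4270 in lbSSC.

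Most of the abundant genes of glycolysis and lactate export were higher in vSSC. Of the 36 genes, 17 were higher in vSSC, 3 were lower and 16 did not pass the test, which was limma on log2(FPKM + 1) with a Benjamini-Hochberg adjusted p under 0.05 over the 10729 genes. Over all genes tested, 14.3% were called higher in vSSC and 9.17% lower. The difference, always given as vSSC minus lbSSC in units of log2(FPKM + 1), had a median of 0.28 over the 36 genes and 0.08 over all genes, and ran from -0.93 for Epas1 to 1.40 for Slc16a3. In 17 genes every vSSC library exceeded every lbSSC library, and in 3 the reverse held, against 15.8% and 9.99% of all genes. The summed FPKM of the 36 genes was 4352 to 5025 in vSSC and 2657 to 3180 in lbSSC. The number called higher dropped to 10 after quantile normalization. It was 9 with a covariate for the ribosomal protein share, with Hk2 newly called. It was 11 without vSSC replicates 1 and 3, the libraries with the highest ribosomal protein share. Gpi1, Aldoa, Tpi1, Slc16a1, Ddit4 and Ankrd37 lost the call without that pair, as did Epas1 among the lower genes. No called gene changed sign in any of 21 alternatives, and 8 were called in all of them: Slc2a1, Gapdh, Pgk1, Pgam1, Ldha, Ldhb, Slc16a3 and Bnip3.

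**Figure D1:**
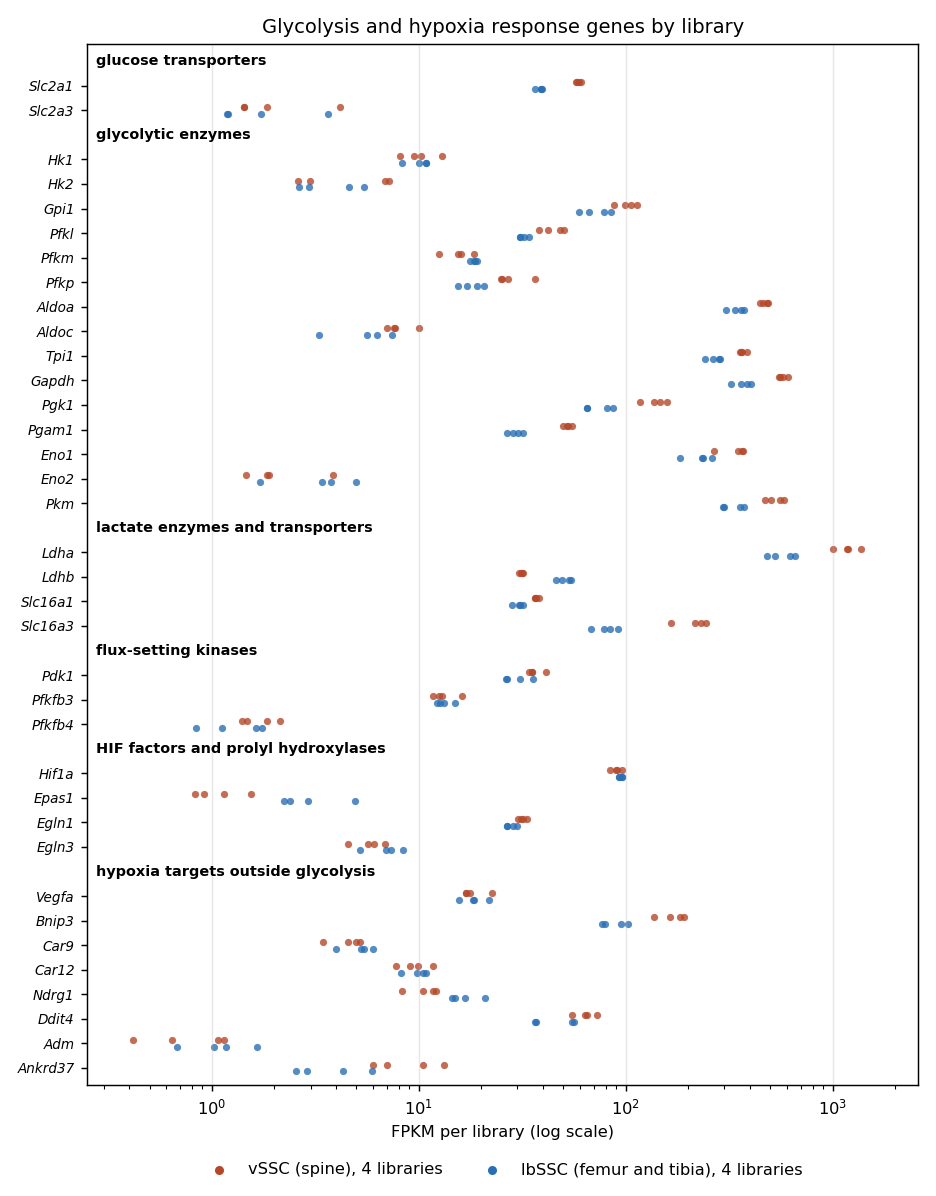
FPKM of the 36 genes in each of the 8 libraries on a log axis, grouped by role, with 1 point per library and the 2 sites in different colours. The vSSC points of Slc16a3 (166 to 246 FPKM) lie above all its lbSSC points (67.9 to 92.3), while the points of Hif1a overlap.

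**Figure D2:**
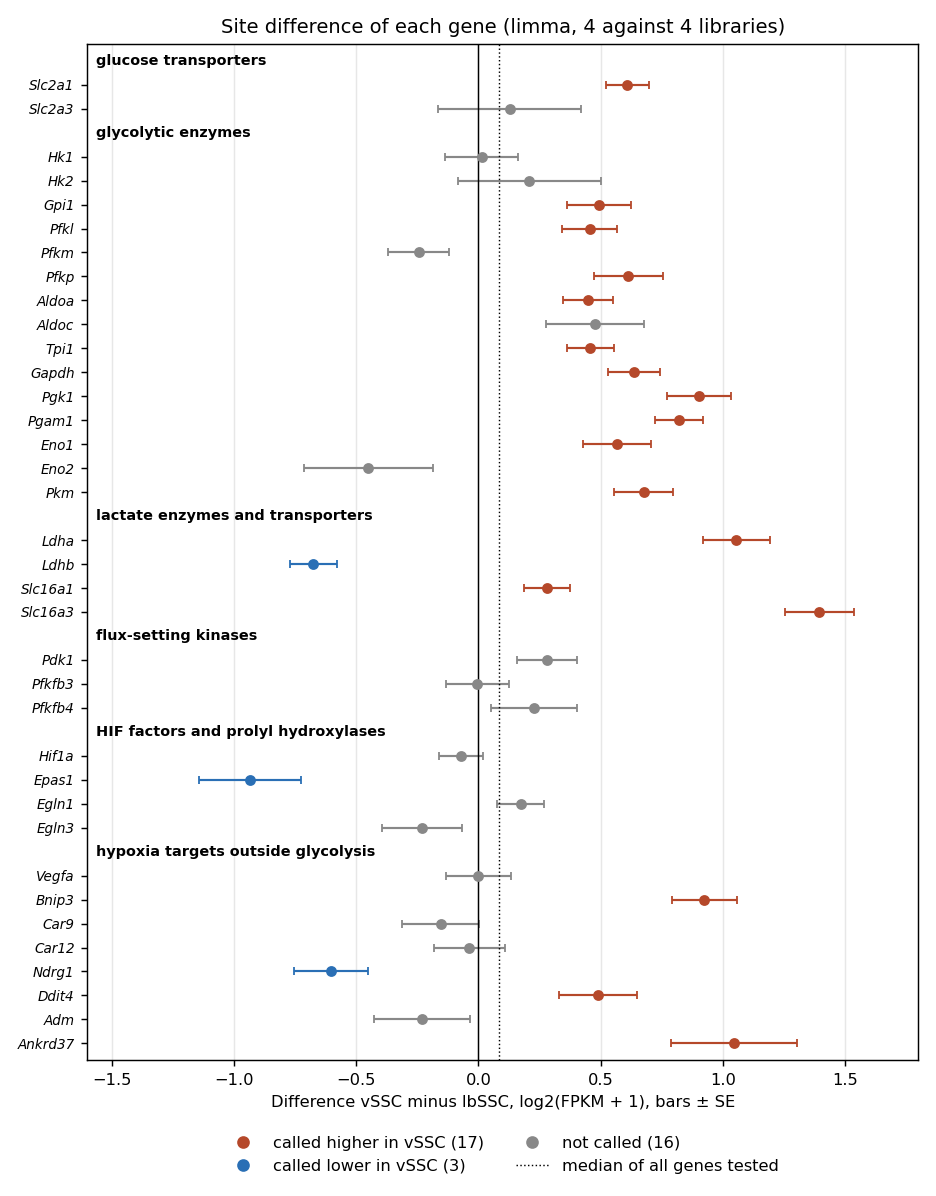
Difference between vSSC and lbSSC for each of the 36 genes on the log2(FPKM + 1) scale, with horizontal bars of 1 standard error from the limma fit over 4 libraries per site. Values run from -0.93 (Epas1) to 1.40 (Slc16a3), and 25 of the 36 lie above 0.

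Glucose enters through Slc2a1 (GLUT1), the transporter of most tissues. It measured 58.5, 60.5, 59.7 and 57.4 FPKM in vSSC replicates 1 to 4 and 36.4, 38.8, 38.8 and 39.4 in the lbSSC replicates. All vSSC libraries were above all lbSSC libraries, and the spread within each site was narrow (SD 1.36 and 1.32, n = 4). The vSSC mean was 1.54 times the lbSSC mean, a difference of 0.61 ± 0.09 (SE, limma adjusted p = 0.000714). Slc2a3 (GLUT3), a high-affinity transporter best known from neurons, was scarce, at 1.43 to 4.18 FPKM in vSSC and 1.18 to 3.65 in lbSSC, and did not pass the test (0.13 ± 0.29, adjusted p = 0.775). Slc2a1 made up 96.4% ± 2.06 of the FPKM of these transporters in vSSC and 95.2% ± 2.67 in lbSSC.

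Among the 15 glycolytic enzymes, 10 were higher in vSSC and none was lower, with a median difference of 0.48. Their summed FPKM was 2516 to 2792 in vSSC and 1648 to 1952 in lbSSC, and the groups did not overlap. The 10 genes called higher cover each step from glucose 6-phosphate to pyruvate, and Hk1 and Hk2, which phosphorylate glucose at entry, were not among them. Hk1 measured 8.16 to 12.9 FPKM in vSSC and 8.32 to 10.9 in lbSSC (0.01 ± 0.15, adjusted p = 0.959). Hk2, the inducible hexokinase, varied more within each site than between them, at 2.62 to 7.22 FPKM in vSSC and 2.65 to 5.46 in lbSSC (0.21 ± 0.29, adjusted p = 0.63). The count of 10 fell to 5 after quantile normalization. With the ribosomal covariate the count was also 5, but Hk2 was newly called in it (1.27, adjusted p = 0.0165). Gpi1, Pfkp, Aldoa, Tpi1, Eno1 and Pkm lost the call with that covariate.

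The upper stretch of the pathway consumes ATP. Gpi1, which isomerizes glucose 6-phosphate, stood at 114, 88.3, 99.1 and 107 FPKM in vSSC and 59.8, 84.5, 78.9 and 66.7 in lbSSC (0.49 ± 0.13, adjusted p = 0.0193). Its call was lost on leaving out vSSC replicate 1 (0.44, adjusted p = 0.0576) or lbSSC replicate 4 (0.46, adjusted p = 0.0503). Aldoa, the main aldolase, cleaves the doubly phosphorylated sugar and ranged from 444 to 488 FPKM in vSSC and from 304 to 372 in lbSSC (0.45 ± 0.10, adjusted p = 0.00986). Tpi1, which interconverts the resulting trioses, ranged from 355 to 387 and from 241 to 286 FPKM (0.46 ± 0.10, adjusted p = 0.00706). Aldoc, the brain aldolase, was far scarcer at 3.31 to 10.0 FPKM over all 8 libraries and did not pass the test (0.48 ± 0.20, adjusted p = 0.102).

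The lower stretch of the pathway yields ATP. Gapdh, often used as a reference gene for normalization, measured 551, 608, 554 and 574 FPKM in vSSC and 360.1, 405, 387 and 321 in lbSSC. The lowest vSSC library was above the highest lbSSC library, and the difference was 0.64 ± 0.11 (adjusted p = 0.00154). Pgk1, which makes the first ATP of the pathway, measured 158, 137, 147 and 118 FPKM in vSSC and 86.6, 81.2, 64.9 and 65.1 in lbSSC. The vSSC mean of Pgk1 was 1.88 times the lbSSC mean (0.90 ± 0.13, adjusted p = 0.000646), the largest difference among the 15 enzymes. Pgam1, the phosphoglycerate mutase, had the smallest adjusted p of them, with 54.8, 52.2, 52.8 and 49.7 FPKM in vSSC against 30.0, 31.9, 28.4 and 26.8 in lbSSC (0.82 ± 0.10, adjusted p = 0.000172). Pkm, the pyruvate kinase of the final step, ranged from 472 to 581 FPKM in vSSC and from 297 to 375 in lbSSC (0.68 ± 0.12, adjusted p = 0.00236). The table gives 1 value for Pkm, so its splice forms could not be read.

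Eno1, the common enolase, needs a caution about its near-identical copy Eno1b. Eno1 measured 369, 348, 268 and 365 FPKM in vSSC and 261, 233, 182 and 235 in lbSSC (0.57 ± 0.14, adjusted p = 0.0147). Replicate 3 was the lowest library at both sites. In those same libraries Eno1b was listed at 22.7 FPKM in vSSC and 15.1 in lbSSC, while it stayed at or below 0.0545 FPKM in the other 6. The sum of Eno1 and Eno1b was 343 ± 35.9 FPKM in vSSC and 232 ± 26.3 in lbSSC (SD, n = 4), and its lowest vSSC value, 291, was above its highest lbSSC value, 261. Gapdh, Ldha, Pgk1, Aldoa and Pgam1 also have processed pseudogenes. How fragments shared with those copies were assigned is not known.

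The isoforms of an enzyme did not all move alike. Of the phosphofructokinase genes, whose tetramers catalyse the committed step, the liver form Pfkl was higher in vSSC with 41.9, 48.1, 38.2 and 50.6 FPKM against 31.0, 32.4, 31.0 and 34.2 (0.46 ± 0.11, adjusted p = 0.0144). The platelet form Pfkp measured 24.9 to 36.4 FPKM in vSSC and 15.5 to 20.6 in lbSSC (0.61 ± 0.14, adjusted p = 0.0108). The muscle form Pfkm had a difference of the other sign that did not pass the test, with 12.5 to 18.6 FPKM in vSSC and 17.7 to 19.2 in lbSSC (-0.24 ± 0.13, adjusted p = 0.173). Pfkm made up 17.6% ± 1.67 of phosphofructokinase FPKM in vSSC and 27.0% ± 1.04 in lbSSC (SD, n = 4), and the libraries of the sites did not overlap in that share.

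Enolase showed the same kind of contrast. The nervous system form Eno2 was scarce and did not pass the test, at 1.47 to 3.84 FPKM in vSSC and 1.71 to 4.96 in lbSSC (-0.45 ± 0.26, adjusted p = 0.23). Eno3, the muscle enolase and not one of the 36, was lower in vSSC, with 5.66, 3.34, 5.87 and 3.93 FPKM against 21.4, 22.4, 23.3 and 15.8 (-1.94 ± 0.18, adjusted p = 2.92e-05). Eno3 made up 1.40% ± 0.53 of enolase FPKM in vSSC and 8.37% ± 2.07 in lbSSC. Of 7 skeletal muscle markers with a row, 6 stayed below 1 FPKM in every library, and Myh3 and Myod1 were listed at 0 throughout. The remaining one was Mylpf, a muscle myosin light chain. It ranged from 3.17 to 12.1 FPKM in vSSC and from 1.94 to 2.81 in lbSSC (0.76 ± 0.32, adjusted p = 0.102). Any part of muscle cells in the Eno3 values was not tested. The shares of hexokinase, aldolase and glucose transporter isoforms overlapped between the sites.

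**Figure D3:**
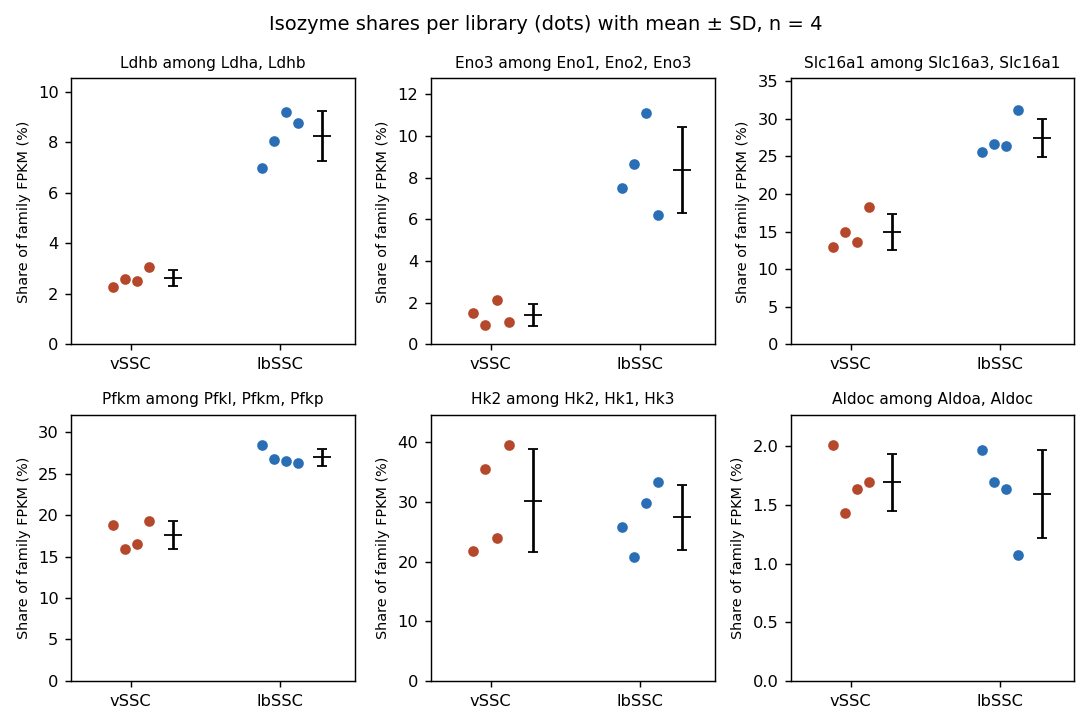
Share of the summed FPKM of an enzyme family, or of the lactate carrier pair, taken by a given isoform, in percent from 0. Each library has 1 point, with the mean ± SD beside them (n = 4). The Ldhb share lies at 2.29% to 3.04% in the vSSC libraries and 6.97% to 9.19% in the lbSSC libraries, and the Pfkm share at 15.9% to 19.3% and 26.2% to 28.5%.

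At the lactate step, genes moved in opposite directions. Ldha (chromosome 7, 46841475 to 46855627, GRCm38), whose subunit favours making lactate from pyruvate, measured 1371, 1178, 1190 and 1001 FPKM in vSSC and 655, 625, 525 and 480 in lbSSC. It was the most abundant of the 36 genes in every library, and its vSSC mean was 2.08 times the lbSSC mean (1.05 ± 0.14, adjusted p = 0.000313). Ldhb (chromosome 6, 142490249 to 142507957), whose subunit favours the return to pyruvate, measured 32.1, 31.3, 30.6 and 31.4 FPKM in vSSC and 49.1, 54.6, 53.1 and 46.2 in lbSSC. All vSSC libraries of Ldhb were below all lbSSC libraries (-0.67 ± 0.10, adjusted p = 0.000604). The ratio of Ldha to Ldhb FPKM was 42.8, 37.6, 38.9 and 31.9 in vSSC and 13.4, 11.4, 9.88 and 10.4 in lbSSC, so that the lowest vSSC ratio was above the highest lbSSC ratio. A ratio within a library shows unequal change and does not depend on how the library was scaled.

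Of the lactate carriers, Slc16a3 (MCT4; chromosome 11, 120948480 to 120960868), the low-affinity exporter of glycolytic cells, had the largest difference of the 36 genes on the log2(FPKM + 1) scale. It measured 245.5, 217, 231 and 166 FPKM in vSSC and 92.3, 83.8, 78.7 and 67.9 in lbSSC. The groups were well apart, with a vSSC mean 2.66 times the lbSSC mean (1.40 ± 0.14, adjusted p = 5.31e-05). Slc16a1 (MCT1), which carries lactate in either direction, ranged from 36.5 to 38.0 FPKM in vSSC and from 28.2 to 31.8 in lbSSC (0.28 ± 0.09, adjusted p = 0.0489). Its call was lost when any 1 of the 8 libraries was left out, with differences of 0.25 to 0.30 and adjusted p values of 0.062 to 0.144. The ratio of Slc16a3 to Slc16a1 FPKM was 5.81 ± 0.976 in vSSC and 2.66 ± 0.313 in lbSSC.

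The kinases that control glycolysis or the use of its pyruvate showed no called difference. Pdk1, which shuts pyruvate out of the mitochondrial citrate cycle by inhibiting pyruvate dehydrogenase, ranged from 34.1 to 41.1 FPKM in vSSC and from 26.4 to 35.8 in lbSSC (0.28 ± 0.12, adjusted p = 0.115). Pfkfb3 makes the sugar bisphosphate that activates phosphofructokinase and ranged from 11.7 to 16.1 and from 12.2 to 14.995 FPKM (adjusted p = 0.988). Pfkfb4, a relative of Pfkfb3, was at 0.841 to 2.13 FPKM over all 8 libraries (0.23 ± 0.18, adjusted p = 0.369).

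Of the 4 oxygen-sensor genes, only Epas1 was called. Hif1a, the alpha subunit of the main hypoxia factor, measured 95.7, 83.7, 89.5 and 91.3 FPKM in vSSC and 93.1, 95.5, 96.0 and 93.3 in lbSSC. The groups overlapped, and the difference was -0.07 ± 0.09 (adjusted p = 0.591). Hif1a was the only gene of the 36 with a mean of at least 50 FPKM that was not called higher, and after quantile normalization it was called lower (-0.29, adjusted p = 0.0326). Epas1 (HIF-2 alpha), the related subunit that is prominent in endothelium, measured 0.831, 1.55, 0.916 and 1.15 FPKM in vSSC and 2.24, 2.39, 2.91 and 4.94 in lbSSC (-0.93 ± 0.21, adjusted p = 0.00904). The groups of Epas1 did not overlap, though its levels were low. Its lbSSC mean was 2.81 times the vSSC mean, a larger ratio than that of Slc16a3, and without vSSC replicates 1 and 3 the adjusted p was 0.0791 (-0.77). All 6 endothelial markers, Pecam1 and Cdh5 among them, stayed below 1 FPKM in every library. Any part of endothelial cells in the Epas1 values was not tested.

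The prolyl hydroxylases, which mark the HIF alpha subunits for degradation, did not pass the test. Egln1 (PHD2), the main oxygen sensor, ranged from 30.1 to 33.2 FPKM in vSSC and from 26.6 to 29.8 in lbSSC. Its groups did not overlap, yet the difference was small (0.17 ± 0.10, adjusted p = 0.207). Egln3 (PHD3), itself a HIF target, was at 4.53 to 6.85 and 5.22 to 8.41 FPKM (-0.23 ± 0.16, adjusted p = 0.32).

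The 8 hypoxia targets with no glycolytic role were divided: 3 were higher in vSSC, 1 was lower and 4 did not pass the test, with a median difference of -0.02. Bnip3, a mitochondrial receptor for mitophagy, measured 191, 164, 182 and 137 FPKM in vSSC and 94.5, 102, 79.2 and 76.7 in lbSSC. Its groups did not overlap and the vSSC mean was 1.91 times the lbSSC mean (0.92 ± 0.13, adjusted p = 0.000649). Ankrd37, which encodes an ankyrin repeat protein, measured 7.01, 10.4, 13.3 and 6.03 FPKM in vSSC and 2.89, 5.93, 4.29 and 2.56 in lbSSC (1.05 ± 0.26, adjusted p = 0.0144). Exons of Pfkm, Pfkp, Aldoa, Tpi1 and Gapdh overlap those of Senp1, Pitrm1, Fam57b, Spsb2 and Iffo1, none of which averaged more than 9.16 FPKM at either site. Exons of Hif1a overlap those of Gm49321, a protein-coding gene on the same strand whose level was not examined. Exons of Ankrd37 overlap those of Ufsp2 on the opposite strand, and the library kit does not mark strand. Ufsp2 itself averaged 45.5 ± 9.18 FPKM in vSSC against 32.1 ± 6.47 (0.49 ± 0.18, adjusted p = 0.0635), and its part in the Ankrd37 value was not tested.

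Ddit4 (REDD1), an inhibitor of mTORC1 under stress, was called higher but its groups overlapped. It measured 65.1, 72.5, 63.5 and 55.3 FPKM in vSSC and 56.0, 54.9, 36.4 and 37.0 in lbSSC (0.49 ± 0.16, adjusted p = 0.0445). The call was lost without vSSC replicate 1, 2 or 3 or lbSSC replicate 3 or 4, with differences of 0.39 to 0.49 and adjusted p values of 0.0901 to 0.13. Ndrg1, a stress-responsive gene that is strongly induced by hypoxia in many cells, moved the other way, with 10.5, 11.7, 12.2 and 8.30 FPKM in vSSC and 14.5, 14.9, 20.9 and 16.7 in lbSSC (-0.60 ± 0.15, adjusted p = 0.0164). Without lbSSC replicate 3, its highest library, the adjusted p of Ndrg1 was 0.0542 (-0.50).

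Vegfa, the angiogenic growth factor and a standard hypoxia target, measured 16.9, 22.5, 17.8 and 17.0 FPKM in vSSC and 15.7, 18.5, 18.2 and 21.8 in lbSSC. The group means were nearly equal, with a ratio of 1.00 (adjusted p = 0.999). Car9, a cell-surface carbonic anhydrase and a common hypoxia marker, was at 3.45 to 5.23 FPKM in vSSC and 4.00 to 6.00 in lbSSC (-0.15 ± 0.16, adjusted p = 0.5). Car12, a related enzyme, had a difference of -0.04 ± 0.15 (adjusted p = 0.872). Adm, the vasodilator peptide adrenomedullin, was at 0.418 to 1.14 and 0.682 to 1.65 FPKM (-0.23 ± 0.20, adjusted p = 0.417).

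The called genes were concentrated among the abundant ones. Of the 12 genes with a mean of at least 50 FPKM over the 8 libraries, 11 were higher in vSSC and none was lower, with a median difference of 0.60. Among all 1449 genes at that level, 32.1% were higher and 7.59% lower, with a median of 0.28. Of the 24 genes below 50 FPKM, 6 were higher and 3 lower, with a median of 0.07, beside 11.5% higher, 9.42% lower and a median of 0.05 among all 9280 such genes. The level of 50 FPKM was chosen after the values had been seen.

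Promoters are shown for the genes with the clearest opposite or parallel differences, with the bases of the HIF core in view. HIF dimers bind the core ACGTG or GCGTG within hypoxia response elements. The stretches run over the 200 bases before the start that RefSeq lists first (GRCm38.p6), 5′ to 3′ on the gene's own strand, and capitals mark every ACGTG or GCGTG on either strand, so that CACGT and CACGC also stand in capitals. They are Slc16a3 at chr11:120948867-120949066 (plus strand), Ldha at chr7:46845604-46845803 (plus), Bnip3 at chr7:138909507-138909706 (minus), Pgk1 at chrX:106186900-106187099 (plus) and Ldhb at chr6:142507958-142508157 (minus).
Slc16a3: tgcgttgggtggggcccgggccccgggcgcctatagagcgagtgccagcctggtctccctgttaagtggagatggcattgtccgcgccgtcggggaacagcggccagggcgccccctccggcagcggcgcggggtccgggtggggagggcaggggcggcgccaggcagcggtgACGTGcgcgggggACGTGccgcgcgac
Ldha: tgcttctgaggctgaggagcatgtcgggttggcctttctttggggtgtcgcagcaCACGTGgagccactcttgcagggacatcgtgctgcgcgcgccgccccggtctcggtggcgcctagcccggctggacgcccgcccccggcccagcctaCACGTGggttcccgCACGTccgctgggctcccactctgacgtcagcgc
Bnip3: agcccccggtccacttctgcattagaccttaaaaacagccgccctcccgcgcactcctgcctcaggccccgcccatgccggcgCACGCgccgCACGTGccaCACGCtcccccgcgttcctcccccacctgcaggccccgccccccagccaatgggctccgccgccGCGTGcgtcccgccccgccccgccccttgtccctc
Pgk1: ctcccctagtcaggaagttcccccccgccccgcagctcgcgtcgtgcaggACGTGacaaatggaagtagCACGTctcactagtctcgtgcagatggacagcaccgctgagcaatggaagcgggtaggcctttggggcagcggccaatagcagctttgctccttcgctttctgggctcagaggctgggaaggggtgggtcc
Ldhb: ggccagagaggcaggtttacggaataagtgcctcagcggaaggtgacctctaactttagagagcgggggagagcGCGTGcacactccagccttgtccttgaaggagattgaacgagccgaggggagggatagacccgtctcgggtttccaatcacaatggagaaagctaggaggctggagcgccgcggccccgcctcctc

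These 5 genes were picked for their differences, so their runs of capitals (2 to 4 in the genes that were higher and 1 in Ldhb) are no comparison. Over the longer window of 250 bases before to 50 after the start, 33 of the 36 genes matched the promoter table by symbol, and Slc2a3, Epas1 and Ndrg1 did not. ACGTG stood on either strand in 18 of the 33 (54.5%), in 26.8% of the 8314 matched genes that were tested, and in 19.7% of all 27025 genes in the table. GCGTG stood in 51.5% of the 33 and in 53.5% of the tested genes. ACGTG was present in 10 of the 17 genes called higher (58.8%) and in 8 of the 15 that were not called (53.3%). Among the genes called higher, Gpi1, Aldoa, Tpi1 and Pkm held neither core. It was present in 6 of the 15 glycolytic enzymes (40%) and in 4 of the 7 matched hypoxia targets with no glycolytic role (57.1%). CACGTG, which holds ACGTG on both strands, stood in 15.2% of the 33 and 10.7% of the tested genes. A match of letters is a description of the sequence and not a binding site.

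The genes around glycolysis were read from lists chosen by function. Over 7 such lists, 103 distinct genes were tested. Of these, 28 were higher in vSSC and 8 lower, beside 14.3% and 9.17% of all genes. The higher count dropped to 18 without vSSC replicate 3, 17 without lbSSC replicate 3, 16 without lbSSC replicate 4 and 4 with the ribosomal covariate, and the lower count rose to 13 without vSSC replicate 4 and to 16 after scaling every library to 1 sum. The pentose phosphate pathway, which branches from glucose 6-phosphate and supplies NADPH and ribose, had 4 of 7 genes higher and none lower, with a median difference of 0.42. Its examples were Taldo1 (134 ± 13.03 against 88.3 ± 20.6 FPKM, 0.62, adjusted p = 0.0142), Tkt (67.5 ± 2.84 against 44.5 ± 5.02 FPKM, 0.60, adjusted p = 0.00257) and Pgd (48.7 ± 2.04 against 34.3 ± 4.82 FPKM, 0.50, adjusted p = 0.0111). The citrate cycle, the mitochondrial route that oxidizes acetyl groups, had 3 of 16 genes higher (18.8%) and none lower, with a median of 0.28. The count of 3 fell to 0 without vSSC replicate 1 or 3 or lbSSC replicate 4 and to 1 without vSSC replicate 2 or lbSSC replicate 3, and rose to 5 without vSSC replicate 4. Those were Idh3a (0.48, adjusted p = 0.0205), Idh3g (0.46, adjusted p = 0.0491) and Sdhb (0.39, adjusted p = 0.035). Idh3a lost its call on leaving out vSSC replicate 1 or 3 or lbSSC replicate 4 (adjusted p = 0.0564 to 0.0594). Idh3g kept it only without vSSC replicate 4 or lbSSC replicate 2, and reached an adjusted p of 0.12 without lbSSC replicate 4. Sdhb kept it only without vSSC replicate 4 or lbSSC replicate 1, and reached 0.106 without lbSSC replicate 3.

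Entry of pyruvate into mitochondria gave 3 genes higher (23.1%) and 2 lower (15.4%) of 13, with a median difference of 0.15. Only 1 was higher without vSSC replicate 1, 2 or 3 or lbSSC replicate 1, 3 or 4. The lower genes were pyruvate dehydrogenase kinases, relatives of Pdk1: Pdk2 at 4.87 ± 1.25 FPKM against 10.5 ± 1.04 (-0.99 ± 0.16, adjusted p = 0.00148), and Pdk4 at 1.22 ± 0.428 against 2.83 ± 0.486 FPKM (-0.79 ± 0.18, adjusted p = 0.00929). Glycogen and gluconeogenesis gave 4 higher and 1 lower of 11, with 2 higher without vSSC replicate 2 or lbSSC replicate 3 or 4, and 2 lower without lbSSC replicate 4. Ugp2, which makes UDP-glucose for glycogen and matrix sugars, was higher at 97.3 ± 15.2 FPKM against 57.7 ± 6.38 (0.74 ± 0.13, adjusted p = 0.00204). Fbp2, a fructose bisphosphatase of gluconeogenesis, was higher at 7.04 ± 1.60 FPKM against 2.54 ± 0.210 (1.16 ± 0.17, adjusted p = 0.000615). Its call was lost with the ribosomal covariate (0.89, adjusted p = 0.0652). Pygm, the muscle glycogen phosphorylase, was lower at 0.688 ± 0.457 against 2.73 ± 0.520 FPKM (-1.17 ± 0.21, adjusted p = 0.00252). Of the 12 other glycolysis genes tested among 24 listed, 3 were higher and 1, Eno3, was lower. Only 1 was higher without lbSSC replicate 3 or 4, and 2 were lower without lbSSC replicate 3. Slc16a7 (MCT2), a high-affinity monocarboxylate carrier, was among the higher ones at 3.75 ± 1.36 against 1.21 ± 0.492 FPKM (1.09 ± 0.23, adjusted p = 0.00643).

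Other regulators of HIF gave 2 higher (18.2%) and none lower of 11, beside 14.3% and 9.17% of all genes. They were Cul2 (0.48, adjusted p = 0.0164) and Rbx1 (0.42, adjusted p = 0.0478), both parts of the ubiquitin ligase that acts on hydroxylated HIF. Rbx1 lost its call on leaving out vSSC replicate 1, 2 or 3 or lbSSC replicate 3 or 4, with an adjusted p of 0.0821 to 0.127, and 1 gene was called lower without vSSC replicate 4. A further 34 hypoxia targets gave 9 higher and 4 lower, with a median of 0.16. The lower count was 2 without lbSSC replicate 3, 7 without vSSC replicate 4 and 8 after scaling to 1 sum. The largest differences among them included both signs: Stc1, a secreted glycoprotein, averaged 0.247 ± 0.177 FPKM in vSSC against 4.47 ± 2.14 (-2.06 ± 0.25, adjusted p = 0.000182). Its vSSC libraries, at 0.0973 to 0.491 FPKM, were all below the filter. Stc1 was therefore tested only because lbSSC was high, and its p-value is no separate support. Its difference ran from -4.25 to -1.54 over the alternatives. Ppp1r3c, which targets a phosphatase to glycogen, averaged 17.6 ± 3.29 FPKM in vSSC against 57.6 ± 9.57 (-1.66 ± 0.16, adjusted p = 3.76e-05). P4ha2, a collagen prolyl hydroxylase, was higher at 174 ± 16.7 against 90.04 ± 6.87 FPKM (0.94 ± 0.11, adjusted p = 0.000111).

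**Figure D4:**
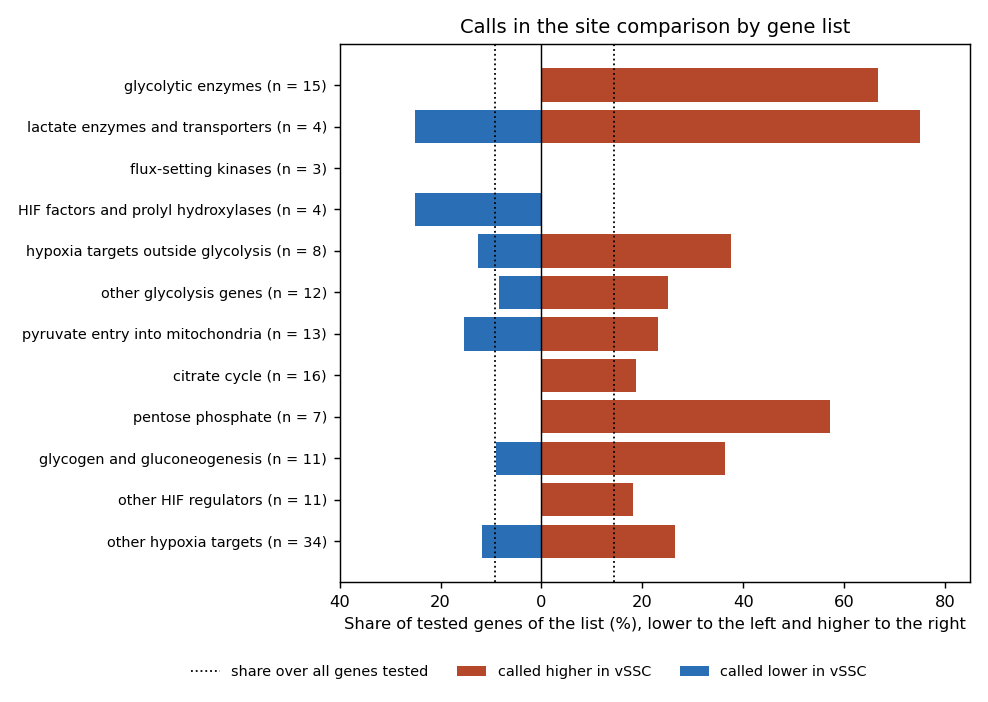
Share of the tested genes of a group or list, in percent, that limma called higher (bars to the right) or lower (bars to the left) in vSSC. The glucose transporters are not drawn. Dotted lines stand at the shares over all genes (14.3% and 9.17%). The glycolytic enzymes reach 66.7% higher and 0% lower of 15, and the further hypoxia targets 26.5% higher and 11.8% lower of 34.

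Sex was read in the same libraries, with site as a covariate. None of the 36 genes was called between males and females by limma, where 0.0466% of all genes were, and the smallest adjusted p was 0.487, for Ddit4 (0.40, male minus female). At an unadjusted p under 0.05 there were 5 (Pgk1, Eno2, Pkm, Ldha and Ddit4), beside 8.31% of all genes. The test of whether the site difference itself depended on sex called none of the 36, and 0.00% of all genes, with none of the 36 and 3.77% of all genes at an unadjusted p under 0.05. With 2 libraries per sex and site, that test has little precision. The site difference had the same sign in both sexes for 30 of the 36 genes, and for all 20 that were called. The 20 were called from these same libraries, so their shared sign was largely fixed beforehand and is no separate support. No share over all genes is given beside the 30. For Slc2a3 the site difference was 0.66 in males and -0.40 in females, and for Hk2 0.59 and -0.17, and neither gene was called.

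**Figure D5:**
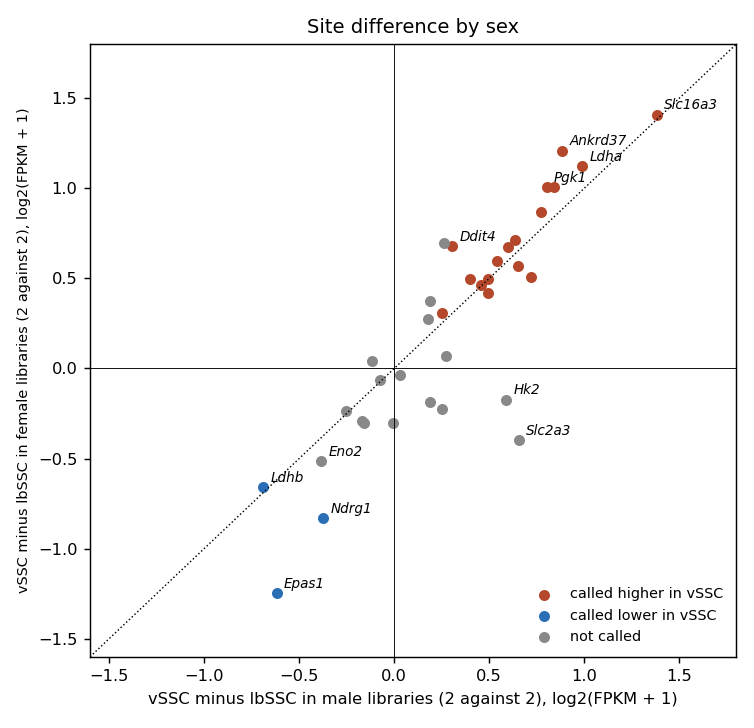
Difference between vSSC and lbSSC in females against that in males for the 36 genes, each from 2 libraries per site, on the log2(FPKM + 1) scale. All 20 called genes have the same sign in both sexes, but they were called from these same libraries. Slc2a3 (0.66 in males, -0.40 in females) lies farthest below the dotted line of equal differences.

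Other transcripts differed between the sites along with these genes, and their part in the results was not tested. Over all genes tested, the shares called were 14.3% higher and 9.17% lower in vSSC. Of 17 proliferation genes tested, 15 were higher in vSSC and none was lower, with a median difference of 0.83. The summed FPKM of the list was 328 to 410 in vSSC against 174 to 247 in lbSSC. Mki67, the listed gene that was not tested, stayed below 1 FPKM throughout. Its mean was lower in vSSC (0.122 ± 0.105 FPKM) than in lbSSC (0.246 ± 0.165), and its groups overlapped. Birc5, an inhibitor of apoptosis made by dividing cells, measured 38.2 ± 8.54 FPKM in vSSC and 14.8 ± 3.76 in lbSSC. Of 77 ribosomal protein genes tested, 33 were higher and 1 lower, with a median of 0.39. Neutrophil markers summed to 288 to 443 FPKM in vSSC and 27.7 to 126 in lbSSC, with 5 of 7 tested higher. Their S100a8 stood at 155 ± 37.7 and 30.9 ± 19.7 FPKM, and the groups did not overlap. Of 6 macrophage and leukocyte markers, the 2 tested were both higher in vSSC, Lyz2 at 15.9995 ± 6.27 against 5.33 ± 2.15 FPKM (1.41, adjusted p = 0.00544) and Cd14 at 7.67 ± 2.87 against 3.45 ± 0.541 FPKM (0.91, adjusted p = 0.0162). The other 4 stayed below 1 FPKM, and of these Ptprc was at 0.331 to 0.949 FPKM in vSSC and 0.025 to 0.0688 in lbSSC. Of 8 erythroid markers, 3 were lower in vSSC and none higher, with sums of 3818 to 5372 FPKM against 4285 to 8831. Of 8 osteoblast markers, 4 were lower and 1 higher, with sums of 2671 to 3057 FPKM against 8761 to 12614. Of 8 notochord and nucleus pulposus markers, 6 stayed below 1 FPKM throughout and the 2 tested were higher in vSSC, Cd24a among them at 509 ± 69.4 against 246 ± 64.7 FPKM. Chondrocyte markers summed to 16478 to 26244 FPKM in vSSC and 18148 to 28926 in lbSSC, with 2 of 9 higher and none lower. Of 6 hypertrophic chondrocyte markers, 2 were higher and 1 lower: Ihh at 94.0 ± 8.92 against 32.9 ± 8.01 FPKM (1.51, adjusted p = 6.93e-05), Pth1r at 407 ± 12.95 against 192 ± 39.5 FPKM (1.11, adjusted p = 0.000228) and Col10a1 at 137 ± 24.8 against 325 ± 53.4 FPKM (-1.25, adjusted p = 0.000176). In bulk libraries a different share of cells and a different level per cell cannot be told apart.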

How the data were processed

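Bulk RNA was measured in 8 libraries, 4 vSSC and 4 lbSSC, grouped by sample title, with sex from the labels. Per the labels' protocols, the cDNA came from the SMART-Seq v4 kit and was tagged with Nextera XT, a chemistry without strand information. Per the submitters' processing notes, the tools were Cufflinks 2.1.1, STAR 2.5.2 and bcl2fastq 2.19 on build GRCm38; their settings are not known here. The authors deposited 1 FPKM value for each protein-coding gene and library. FPKM is relative to each library's total, and no counts or intervals from counts were used.

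In R 4.3.3, log2(FPKM + 1) was taken, and limma 3.58.1 (empirical Bayes with a variance trend) was run on genes reaching 1 FPKM in 4 or more of the 8 libraries, with Benjamini-Hochberg adjustment over all 10729, and the script was tested on simulated data. The site comparison had no covariate, the sex comparison had site, and the interaction both. Any of the 36 genes may be named, and up to 3 called genes with the largest difference of each other list, or a gene on which a result turns. The members and lists were chosen with earlier results of these data known. The 6 genes of the surface gate were added after the values had been seen. Locus starts are the listed ones plus 1, which matched GENCODE M21 for most of the 36. Alternatives covered the pseudocount, filter, scaling, variance trend, library weights, covariates, replicate block and libraries left out.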

Additional observations from a re-analysis of the deposited data

Results flagged for a closer look

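In 126 series of 4 libraries, from 63 genes at each site, 6 had a lowest or highest library far from the other 3 by Dixon's test, where chance gives about 1 in 20. Eno1b was listed at 22.7 FPKM in vSSC replicate 3 and 15.1 FPKM in lbSSC replicate 3, and at or below 0.0545 FPKM in the others. Slc2a3 in vSSC replicate 1 stood at 4.18 FPKM, above 1.43 to 1.86 in the other vSSC libraries. In vSSC replicate 2, Pdk1 stood at 41.1 FPKM, against 34.1 to 35.2, and Vegfa at 22.5 FPKM, against 16.9 to 17.8. Fbp2, a fructose bisphosphatase, was at 2.85 FPKM in lbSSC replicate 2, against 2.40 to 2.47.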

How the results depend on the processing

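Of the 20 called genes, 8 were called in all 21 alternatives, none changed sign in any, and Slc16a1 lost its call in 15 and Ddit4 in 12. Of the 16 others, 13 were never called; Hk2 was called with the ribosomal covariate (1.27, adjusted p = 0.0165), Aldoc with the replicate block (adjusted p = 0.0486) and Hif1a after quantile normalization. That covariate nearly separates the sites. With it, 614 genes were called over the whole table, newly called genes included, against 2518 without it. It gave 9 members higher, with Hk2 newly among them, and 1 lower. The enzymes had 5 higher, again counting Hk2, and the hypoxia targets 1 higher and 0 lower. In the pathway lists 4 were higher and 3 lower (28 and 8 otherwise). Quantile normalization gave 10 members and 5 enzymes higher, and 18 pathway genes. Without vSSC replicates 1 and 3, 1095 genes were called in all, 11 members, 1 hypoxia target and 9 pathway genes were higher. Leaving out 1 library gave 1534 to 2991 genes in all, 14 to 16 members higher, 2 to 3 lower, 16 to 29 pathway genes higher and 7 to 13 lower, and 0 hypoxia targets lower without lbSSC replicate 3. The fewest genes in all came without lbSSC replicate 3 (1534), and 1589, 1646 and 1673 without lbSSC replicate 4, vSSC replicate 3 and vSSC replicate 1. Scaling to 1 sum gave 18 pathway genes higher and 16 lower, and median-of-ratios scaling 13 lower. Of all calls, 60.9% were higher in vSSC as deposited. Scaling by median-of-ratios, by quantiles and to 1 sum gave 51.9%, 50% and 42.4%, and the median of all genes moved from 0.08 to 0.01, 0.03 and -0.04. The median of the 36 genes less that of all genes was 0.20, 0.19, 0.18 and 0.18.

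The deviations of same-numbered libraries correlated at 0.257 and 0.435 for replicates 1 and 4, but at -0.0878 and -0.0639 for replicates 2 and 3. Differently numbered pairs, some of them of unlike sex, ran from -0.362 to 0.206. Same-numbered libraries always share sex, and sex was left in these deviations. Eno1b stood out in replicate 3 at both sites. Whether the numbers pair the libraries is therefore not settled, and the main fit did not pair them. The replicate block gave 17 members higher and 3 lower, 2016 genes higher and 1178 lower over the whole table, and 14 pathway genes lower.

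Uncalled differences near 0 changed sign. Slc2a3 was -0.011 with library weights, -0.12 to 0.37 with 1 library left out and -0.086 without vSSC replicates 1 and 3. Under median-of-ratios, quantile and 1-sum scaling, Hk1 was -0.064, -0.059 and -0.12 and Vegfa -0.080, -0.12 and -0.14. Leaving out 1 library gave -0.098 to 0.10 for Hk1, -0.092 to 0.076 for Vegfa, -0.093 to 0.051 for Pfkfb3 and -0.13 to 0.052 for Car12. Pfkfb3 was 0.030 with weights, 0.29 with the ribosomal covariate and 0.12 without vSSC replicates 1 and 3. With the ribosomal covariate Pfkfb4 was -0.0040, Car12 0.10, Adm 0.059 and Mpc1, called as deposited, -0.0089. Without vSSC replicates 1 and 3, Car12 was 0.13 and Adm 0.0021. The causes were not tested.

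The Ldhb share in vSSC minus that in lbSSC was -6.07 to -5.32 percentage points whichever library was left out. With any listed start in place of the first, 87.9% of the matched members held ACGTG or GCGTG, beside 69.4% of tested genes, against 75.8% and 65.1%; this alternative, and those for the pathway lists and shares, were chosen after seeing the data. The number of fragments is unknown, so genes near 1 FPKM such as Epas1, Slc2a3 and Adm have no counting interval.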
